A study of Mus musculus with 22 samples.

Results

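Whole mouse aortas were kept for 4 h with 1 of 3 inflammatory stimuli or in medium alone, and the transcripts described here are those that moved in the same direction with all 3 stimuli. The set was defined on 12 of the 22 arrays in the series, namely the 9 stimulated arrays and the 3 medium arrays that all of them were compared with. The stimulated groups were LPS at 4 ng/mL, oxLDL at 50 µg/mL and oxPAPC at 50 µg/mL, with 3 arrays each (replicates 3, 4 and 10 for LPS, 14, 15 and 16 for oxLDL, and 11, 12 and 13 for oxPAPC). The control group was medium alone (DMEM) with replicates 9, 10 and 11. All 4 groups came from wild-type C57BL/6 mice on chow, and all vessels were held in DMEM with 1% serum. The age of these mice is not in the labels. After incubation the intima was scraped off and its RNA was amplified and hybridised, so the sample is labelled as aortic endothelial cells. Fresh wild-type intima from 4-week-old C57BL/6 mice (n = 6), which was not incubated, was used to place the levels. The probe set of each gene was chosen by its mean over all 22 arrays. These include the fresh wild-type arrays and 4 arrays of fresh ApoE knockout intima from 4-week-old mice. The number of animals behind each array is not in the labels either, so every p-value measures only the spread between arrays, and 3 arrays per group limit the precision.

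LPS is a cell wall component of Gram-negative bacteria that is sensed by the receptor TLR4 on endothelial and immune cells. OxLDL is the oxidized lipoprotein particle that collects in the vessel wall in atherosclerosis. OxPAPC is a mixture of oxidized phospholipids of the kind found in such particles. Endothelial cells are known to answer LPS with cytokines and adhesion molecules, and oxidized phospholipids with antioxidant and amino acid stress genes.

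Of 7550 genes tested with limma, 900 (11.9%) differed between the mean of the 3 stimuli and medium at an adjusted p under 0.05, with 370 (4.9%) higher and 530 (7.02%) lower. A gene past that threshold is described as called. Of these 900 genes, 871 (11.5% of all tested) had the same sign with each stimulus, 358 of them higher (4.74%) and 513 lower (6.79%). The remaining 29 had mixed signs. Each stimulus against the same 3 medium arrays called 683 genes for LPS (9.05%), 212 for oxLDL (2.81%) and 1606 for oxPAPC (21.3%). The calls were 254 higher (3.36%) and 429 lower (5.68%) for LPS, 56 higher (0.742%) and 156 lower (2.07%) for oxLDL, and 630 higher (8.34%) and 976 lower (12.9%) for oxPAPC. A stricter set of 70 genes (0.927%) was called in 1 direction with each of the 3 stimuli, 17 higher (0.225%) and 53 lower (0.702%), and no gene was called with each stimulus in differing directions. These 70 genes were 33% of the oxLDL calls, 10.2% of the LPS calls and 4.36% of the oxPAPC calls. Because the 3 comparisons share the medium arrays, an unusual level in medium moves all 3 differences together, and that contribution cannot be told apart from a shared response.

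Among the 871 genes, 70 were called with all 3 single stimuli, 310 with 2, 438 with 1 and 53 with none. The oxLDL difference was the smallest of the 3 in 467 of the 871, and the oxPAPC difference the largest in 478. The share over all tested genes is not given here. Among the 70 the smallest difference was that of LPS in 24, oxLDL in 22 and oxPAPC in 24. The largest was that of LPS in 21, oxLDL in 16 and oxPAPC in 33. For the 17 rises the mean difference over the stimuli lay between 0.47 and 1.32 on the log2 scale, with a median of 0.86. For the 53 falls it lay between -2.19 and -0.55, with a median of -1.09, against a median of -0.02 over all 7550 genes. By construction these values are a description of the set. All 9 stimulated arrays lay above all 3 medium arrays for the 17 rises and below them for the 53 falls. Choosing the genes by calls against the same medium arrays favours such a separation, so it is no separate support. Over all genes tested it held upward for 4.07% and downward for 4.77%.

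**Figure D1:**
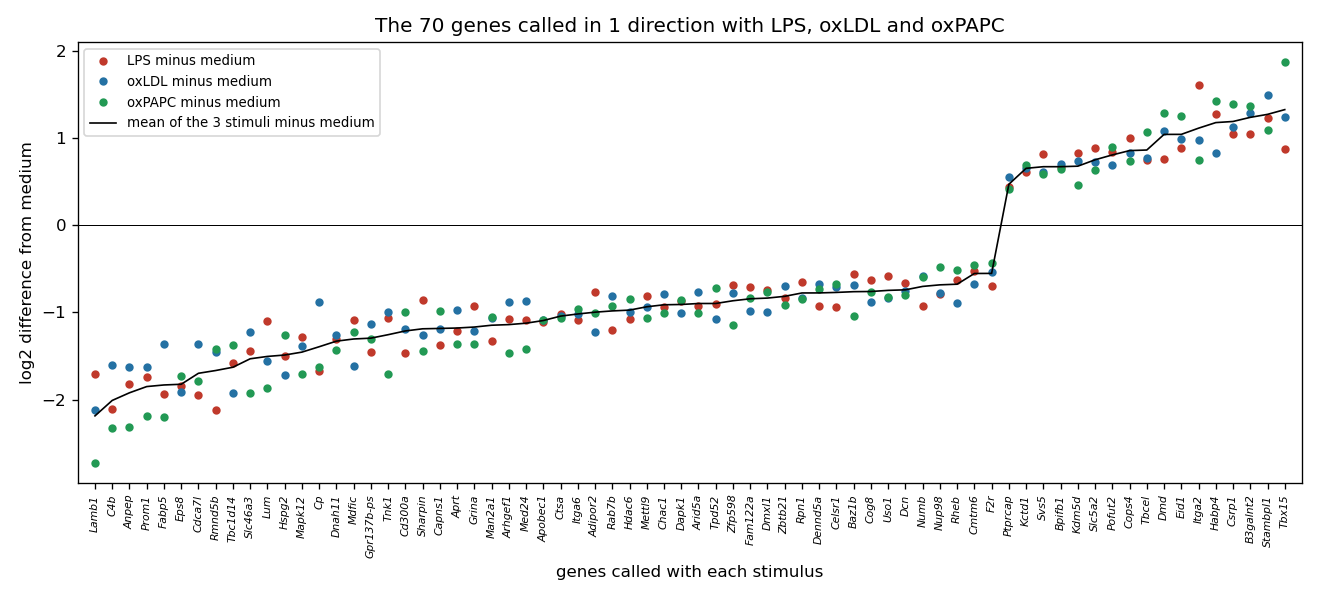
Log2 difference from medium (vertical axis) for the 70 genes called in 1 direction with LPS, oxLDL and oxPAPC, ordered by the mean of the 3 stimuli (line), with 1 point per stimulus. The 53 falls reach further from 0, down to -2.19 for the mean, than the 17 rises, which reach 1.32.

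Stambpl1 had the largest rise by its weakest stimulus. It encodes a deubiquitinase related to the endosomal enzyme AMSH. Its log2 signal was 5.69, 5.82 and 6.30 with LPS, 6.31, 6.00 and 6.30 with oxLDL and 6.10, 5.65 and 5.66 with oxPAPC, against 4.45, 4.55 and 5.13 in medium. No stimulated array overlapped a medium array. The mean difference was 1.27 ± 0.18 (SE, limma adjusted p = 0.00297), a ratio of 2.41, and the differences were 1.23 with LPS, 1.49 with oxLDL and 1.09 with oxPAPC.

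Csrp1, a LIM-domain protein of the actin cytoskeleton that is abundant in smooth muscle, ranked next. Its signal was 9.71, 9.47 and 10.07 with LPS, 9.85, 9.87 and 9.77 with oxLDL and 10.32, 10.22 and 9.73 with oxPAPC, against 8.44, 8.60 and 9.07 in medium. The mean difference was 1.19 ± 0.17 (limma adjusted p = 0.0030), and its second probe set rose by 1.02 ± 0.18. Dmd encodes dystrophin, which links the actin cytoskeleton to the matrix through dystroglycan. It gave 9.56, 9.34 and 9.83 with LPS, 9.98, 10.03 and 9.68 with oxLDL and 10.30, 10.25 and 9.77 with oxPAPC, against 8.53, 8.78 and 9.14 in medium. The mean difference was 1.04 ± 0.17 (limma adjusted p = 0.0050), with 0.75 for LPS, 1.08 for oxLDL and 1.29 for oxPAPC. The other 2 Dmd probe sets did not follow it, since one differed by 0.26 ± 0.23 and the other was lower by a called -0.67 ± 0.18. B3galnt2 encodes a glycosyltransferase that modifies dystroglycan. It differed by 1.24 ± 0.20 (limma adjusted p = 0.0050), while its second, dimmer probe set gave -0.61 ± 0.24 and was not called.

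Itga2 and Tbx15 rose with each stimulus but to unequal degrees. Itga2 encodes the collagen-binding integrin alpha subunit also present on platelets. Its signal was 5.55, 5.36 and 4.82 with LPS, 4.97, 4.35 and 4.49 with oxLDL and 4.41, 4.13 and 4.61 with oxPAPC, against 3.58, 3.58 and 3.74 in medium. The differences were 1.61 with LPS, 0.97 with oxLDL and 0.75 with oxPAPC, and they differed among the stimuli (limma moderated F, adjusted p = 0.037). The medium mean lay 0.96 below the 40th percentile of its arrays, where signals are close to background, and 2 of the 3 stimulus means lay below it too, so the size of this rise is uncertain. Itga2 passed the filter on low signals only through stimulated arrays, so only a rise could have been found for it. Tbx15, a T-box transcription factor of skeletal and mesenchymal development, ran in the other order with 0.87 for LPS, 1.24 for oxLDL and 1.87 for oxPAPC (limma moderated F, adjusted p = 0.032). Its medium arrays measured 4.19, 4.59 and 4.97 and lay on average at the 40th percentile, against 5.34 to 6.72 in the stimulated arrays. Slc5a2, a sodium-glucose cotransporter, was the remaining rise whose medium mean lay below that percentile.

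Among the remaining rises ranked highest, Eid1, a nuclear inhibitor of histone acetyltransferase coactivators, differed by 1.04 ± 0.18. Habp4, a hyaluronan- and RNA-binding protein, differed by 1.18 ± 0.13, with 0.83 for oxLDL as the smallest of its 3 values and a called difference among the stimuli (limma moderated F, adjusted p = 0.043). Tbcel, which is related to tubulin-folding cofactors, differed by 0.86 ± 0.12. Cops4, a signalosome subunit, differed by 0.85 ± 0.11, and Pofut2, which adds fucose to thrombospondin repeats, by 0.81 ± 0.11. Bpifb1, a secreted protein of the BPI fold family, differed by 0.67 ± 0.14. All 6 were called in the pooled comparison, with limma adjusted p between 0.00083 and 0.0128. Their further probe sets were not called. The one for Tbcel went the other way, at -0.29 ± 0.26. Those for Eid1 gave 0.09 ± 0.29 and 0.51 ± 0.33, for Habp4 0.21 ± 0.10, for Pofut2 0.55 ± 0.17 and for Bpifb1 0.21 ± 0.08.

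**Figure D2:**
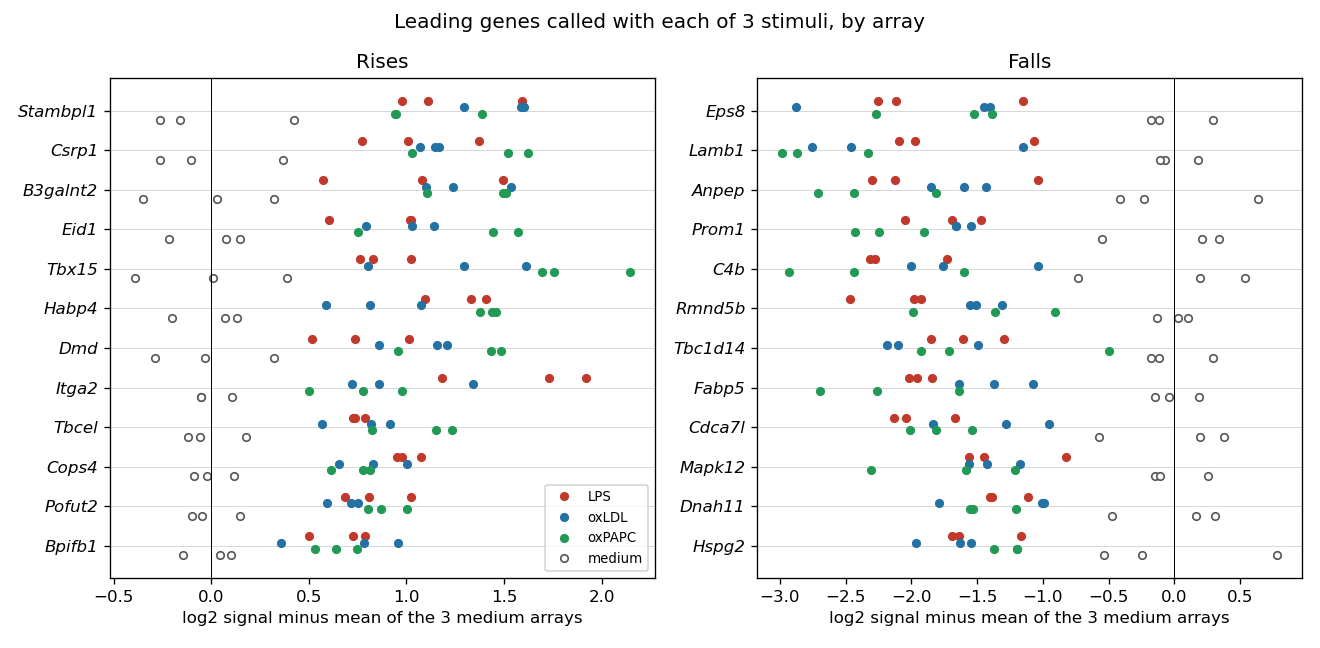
Log2 signal of each array minus the mean of the 3 medium arrays for the 12 leading rises (left) and the 12 leading falls (right), with filled points for LPS, oxLDL and oxPAPC arrays and open points for medium. No filled point overlaps the open points of its gene. For Itga2 and Tbx15 the stimuli differ in mean, although arrays of different stimuli overlap.

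Lamb1 had the largest fall of the 70 genes. It encodes a beta chain of laminin, the main glycoprotein of the basement membrane under the endothelium. Its signal was 5.36, 5.48 and 6.39 with LPS, 6.30, 4.99 and 4.69 with oxLDL and 4.46, 4.58 and 5.12 with oxPAPC, against 7.38, 7.34 and 7.63 in medium. The mean difference was -2.19 ± 0.31 (limma adjusted p = 0.0030), a ratio of 0.220, and both other probe sets were also lower, at -1.59 ± 0.13 and -0.34 ± 0.09, and called. Hspg2, the gene of the basement membrane proteoglycan perlecan, measured 5.63 to 6.43 in the stimulated arrays, against 7.06, 7.35 and 8.38 in medium. It fell by 1.49 ± 0.23 (limma adjusted p = 0.0043), while its second probe set gave -0.08 ± 0.14 and was not called.

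Eps8 encodes an actin-capping adaptor of receptor tyrosine kinase signalling. Its signal was 5.18, 6.29 and 5.32 with LPS, 6.03, 4.56 and 5.98 with oxLDL and 5.91, 5.17 and 6.05 with oxPAPC, against 7.32, 7.73 and 7.26 in medium. The mean difference was -1.82 ± 0.33 (limma adjusted p = 0.0080), and the other 2 probe sets were called lower as well, at -1.63 ± 0.14 and -0.74 ± 0.17. Its 3 differences were -1.84, -1.91 and -1.72, and the interval of the LPS minus oxLDL difference ran from -0.81 to 0.95.

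Fabp5, a cytoplasmic carrier of fatty acids, measured 7.13, 7.02 and 6.96 with LPS, 7.90, 7.60 and 7.33 with oxLDL and 6.28, 6.71 and 7.34 with oxPAPC, against 8.93, 8.82 and 9.16 in medium. It fell by 1.83 ± 0.19 (limma adjusted p = 0.00083), and its second probe set by 1.45 ± 0.13. The oxLDL difference of -1.36 was smaller than the -1.94 of LPS and the -2.20 of oxPAPC, but the difference among stimuli was not called (limma moderated F, adjusted p = 0.064). C4b encodes a complement component cleaved by the classical pathway. It measured 5.18, 4.60 and 4.63 with LPS, 5.15, 4.90 and 5.87 with oxLDL and 4.47, 3.98 and 5.31 with oxPAPC, against 7.10, 7.45 and 6.18 in medium. The fall of 2.01 ± 0.32 (limma adjusted p = 0.0045) was large, but medium replicate 11 lay nearly 1 log2 unit below the other medium arrays, and the oxLDL difference passed at an adjusted p of only 0.0494.

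Anpep, the membrane alanyl aminopeptidase, fell by 1.92 ± 0.29 (limma adjusted p = 0.0037). Prom1, the membrane glycoprotein prominin, fell by 1.85 ± 0.19 (limma adjusted p = 0.00083), but its stimulated arrays, at 2.92 to 3.89, lay below the 40th percentile with all 3 stimuli. Rmnd5b, a subunit of a ubiquitin ligase complex, measured 5.34, 5.83 and 5.89 with LPS, 6.31, 6.26 and 6.51 with oxLDL and 6.45, 6.91 and 5.83 with oxPAPC, against 7.68, 7.92 and 7.85 in medium. Its fall was 1.67 ± 0.20 (limma adjusted p = 0.0013). Tbc1d14, a Rab-binding regulator of autophagy, fell by 1.63 ± 0.27, Cdca7l, a Myc-interacting nuclear protein, by 1.70 ± 0.22, and Mapk12, a kinase of the p38 family, by 1.46 ± 0.22. Dnah11, an axonemal dynein heavy chain, fell by 1.33 ± 0.20. For these 4 the limma adjusted p lay between 0.0023 and 0.0055. Further Tbc1d14 probe sets gave a called -1.60 ± 0.26 and an uncalled -0.27 ± 0.17. Of the 53 falls, 10 had at least 1 stimulus group below the 40th percentile and 4 had all 3, so their falls end near background. How many of these entered the test only through medium arrays was not counted.

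The 70 genes were chosen for moving with each stimulus, yet they differed in how evenly they did so. For 6 of them the difference among the 3 stimuli was called, against 16% of all tested genes. These were the rises Tbx15, Itga2 and Habp4 and the falls Cp, Tnk1 and Arhgef1. Cp encodes ceruloplasmin, the copper-carrying ferroxidase. Its signal was 6.61, 6.32 and 6.05 with LPS, 7.20, 7.27 and 6.89 with oxLDL and 6.47, 6.38 and 6.27 with oxPAPC, against 8.14, 7.98 and 7.89 in medium. It fell by 1.68 with LPS and 1.62 with oxPAPC but by 0.88 with oxLDL, so the oxLDL arrays lay between the other stimulated arrays and medium (limma moderated F, adjusted p = 0.012). Tnk1, a non-receptor tyrosine kinase, and Arhgef1, an activator of the GTPase RhoA, were named after their values were seen. Both fell most with oxPAPC, by 1.71 for Tnk1 and 1.47 for Arhgef1. The further Tnk1 probe sets gave -0.06 ± 0.08 and 0.05 ± 0.12 for the mean of the stimuli, and neither was called.

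Apobec1, the cytidine deaminase that edits apolipoprotein B mRNA, moved most evenly. It measured 7.63, 7.99 and 7.80 with LPS, 8.13, 7.29 and 8.08 with oxLDL and 7.41 to 8.08 with oxPAPC, against 9.05, 8.61 and 9.09 in medium. The differences were -1.11, -1.09 and -1.09, and the 95% interval of LPS minus oxLDL ran from -0.57 to 0.52, so differences of up to about that size would not have been seen. Ctsa, a lysosomal carboxypeptidase that protects other lysosomal enzymes, gave -1.02, -1.05 and -1.06 with LPS, oxLDL and oxPAPC. Bpifb1 gave 0.67, 0.70 and 0.64, and Kctd1, a transcriptional repressor with a BTB domain, 0.60, 0.66 and 0.69. For the largest spread, Lamb1 differed by -1.71 with LPS, -2.12 with oxLDL and -2.73 with oxPAPC, with a moderated F that was not called (limma adjusted p = 0.16).

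At the edge of the set, Rheb, C4b and Kctd1 were included with a largest adjusted p of 0.0479, 0.0494 and 0.0494, while Ankrd46, Def8 and Dock6 missed it at 0.0503. Ankrd46 differed by -1.26 and Dock6 by -0.96 in the mean of the 3 stimuli, as much as many of the 70. Of the 70 genes, 33 had 48 further probe sets on the array. Of those probe sets 39 had the same direction and 15 were also called in it, while 1, for Dmd, was called in the opposite direction. Kdm5d, a Y-linked histone demethylase, was among the 17 rises at 0.68 ± 0.12, but its other 2 probe sets gave 0.06 ± 0.15 and -0.29 ± 0.25. All 12 arrays carried Y-linked signal, so this gene does not separate the groups by sex.

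Promoter sequences from RefSeq (GRCm38.p6), 250 bases before to 50 after the gene start, were available for 50 of the 70 genes, and 3 are shown because they belong to the leading rise, the largest fall and the cytoskeletal rise with a CArG box, the motif bound by serum response factor. Capitals mark motifs found by letters on either strand, which describe the sequence and are not shown binding sites. In Stambpl1 (chr19:34191979-34192278, plus strand) they mark the E-box CACGTG, held by 10.8% of promoters of tested genes and 7.24% of all promoters in the table. In Lamb1 (chr12:31265043-31265342, plus strand) they mark CCAAT, held by 37.4% and 37.9%. In Dmd (chrX:82948620-82948919, plus strand) they mark a CArG box, held by 1.49% and 1.57%, and the AP-1 letters TGANTCA at 2 places, held by 5.51% and 7.93%. They also mark TATAAA on the reverse strand, held by 7.65% and 14.2%. Of the 50 genes 13 had several promoter entries, with 4 for Stambpl1 and 2 for Dmd, and only the first was used.
Stambpl1: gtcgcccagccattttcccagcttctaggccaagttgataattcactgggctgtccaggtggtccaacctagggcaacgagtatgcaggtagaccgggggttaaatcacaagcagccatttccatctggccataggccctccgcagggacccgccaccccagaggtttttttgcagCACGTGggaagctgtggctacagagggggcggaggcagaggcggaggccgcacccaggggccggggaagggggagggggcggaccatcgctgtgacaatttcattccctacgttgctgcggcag
Lamb1: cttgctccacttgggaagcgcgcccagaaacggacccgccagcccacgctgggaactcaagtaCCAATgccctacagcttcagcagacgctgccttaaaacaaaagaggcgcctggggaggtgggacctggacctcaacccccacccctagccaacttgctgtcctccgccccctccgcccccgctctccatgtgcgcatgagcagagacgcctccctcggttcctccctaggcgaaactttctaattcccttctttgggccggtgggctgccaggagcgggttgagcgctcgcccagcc
Dmd: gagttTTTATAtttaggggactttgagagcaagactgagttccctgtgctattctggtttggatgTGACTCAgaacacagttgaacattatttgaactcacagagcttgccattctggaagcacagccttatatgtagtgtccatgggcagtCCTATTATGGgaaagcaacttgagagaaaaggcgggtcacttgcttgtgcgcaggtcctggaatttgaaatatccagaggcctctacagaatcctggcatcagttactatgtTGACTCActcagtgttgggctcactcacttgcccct

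Smooth muscle genes formed the list with the most calls in 1 direction. Of 16 tested members, 10 rose in the pooled comparison with the same sign for each stimulus, against 4.74% of all genes, and none fell. The median over the list was 0.81, with 0.71 for LPS, 0.62 for oxLDL and 1.00 for oxPAPC, against -0.02 over all genes. Myh11, the smooth muscle myosin heavy chain, measured 11.33, 11.09 and 11.40 with LPS, 11.29, 11.42 and 11.03 with oxLDL and 11.60, 11.51 and 11.36 with oxPAPC, against 9.93, 10.28 and 11.02 in medium. The stimulated arrays were close together, and medium replicate 11 lay just below the lowest of them. Its difference was 0.93 ± 0.19 (limma adjusted p = 0.014). Myocd, the coactivator of serum response factor that drives smooth muscle genes, rose by 0.97 ± 0.20, and Tpm2, a tropomyosin, by 0.89 ± 0.17. Acta2, Actg2, Cald1, Lmod1, Myl9, Mylk and Tpm1 completed the 10, at 0.53 to 0.97. The other 6 members, Casq2, Cnn1, Des, Itga8, Pln and Synpo2, gave 0.17 to 0.90 and were not called.

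The number of these calls varied with the medium arrays. The mean log2 signal over the 16 markers was 8.55 to 8.82 with LPS, 8.30 to 8.74 with oxLDL and 8.65 to 9.04 with oxPAPC, against 7.61, 7.97 and 8.43 in medium, and fresh wild-type intima gave 8.63 to 9.34. Medium had the lowest group mean and the widest spread, and medium replicate 11 overlapped the lowest oxLDL array. Without medium replicate 9 none of the 16 was called and the median was 0.57. Without medium replicate 10 the number was 2 with a median of 0.71, and without medium replicate 11 it was 10 with a median of 1.09. Without oxPAPC replicates 11 and 12 it was 3 with a median of 0.72. The list median stayed above 0 in each of these fits. In bulk RNA, a smaller share of smooth muscle cells in the medium scrapings and less of these transcripts per cell cannot be told apart. The fit was also run with the mean of these markers as a covariate. The pooled comparison then called no gene in limma, where 1113 genes had an unadjusted p under 0.05, the median standard error was 1.66 times larger, and the medians of the 17 rises and 53 falls were 0.73 and -1.05.

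CArG boxes were found in 9 of 286 promoters of the 358 rises (3.15%), in 4 of 407 promoters found for the falls (0.983%), and in 91 of 6093 promoters of all tested genes (1.49%). Among the genes called with each stimulus they were in 1 of 11 promoters of rises (Dmd, 9.09%) and in 2 of 39 promoters of falls (Tnk1 and Aprt, 5.13%). The 9 sites are given with 10 bases on each side and the box in capitals, since several of these genes encode contractile or adhesion proteins. Myl9 is a smooth muscle myosin light chain, Vcl encodes vinculin, Fermt2 a kindlin that activates integrins, Fhl1 and Lmcd1 LIM-domain proteins of muscle, and Myl3 a light chain of cardiac and slow muscle. Their pooled differences were 0.97 for Myl9, 0.58 for Vcl, 0.67 for Fermt2, 0.63 for Fhl1, 0.73 for Lmcd1, 0.38 for Myl3, 0.73 for Creld1, 0.43 for Rcn2 and 1.04 for Dmd. Creld1 encodes a membrane protein with epidermal growth factor-like repeats, and Rcn2 a calcium-binding protein of the endoplasmic reticulum.
Dmd (chrX:82948762-82948791, plus strand): catgggcagtCCTATTATGGgaaagcaact
Myl9 (chr2:156775293-156775322, plus strand): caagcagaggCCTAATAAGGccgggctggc
Vcl (chr14:20929161-20929190, plus strand): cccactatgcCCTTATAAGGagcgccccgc
Fermt2 (chr14:45530250-45530279, minus strand): tccttcatttCCATAAAAGGgcagcgctcc
Fhl1 (chrX:56779571-56779600, plus strand): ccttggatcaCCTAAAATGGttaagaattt
Lmcd1 (chr6:112273533-112273562, plus strand): tgctccttgcCCTTTAAAGGagaagggcgt
Myl3 (chr9:110763583-110763612, plus strand): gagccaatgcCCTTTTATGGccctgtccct
Creld1 (chr6:113483269-113483298, plus strand): acatggctttCCATAATTGGctgggagaag
Rcn2 (chr9:56041829-56041858, plus strand): gcccccgcggCCATATAAGGcagggcctgg

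**Figure D3:**
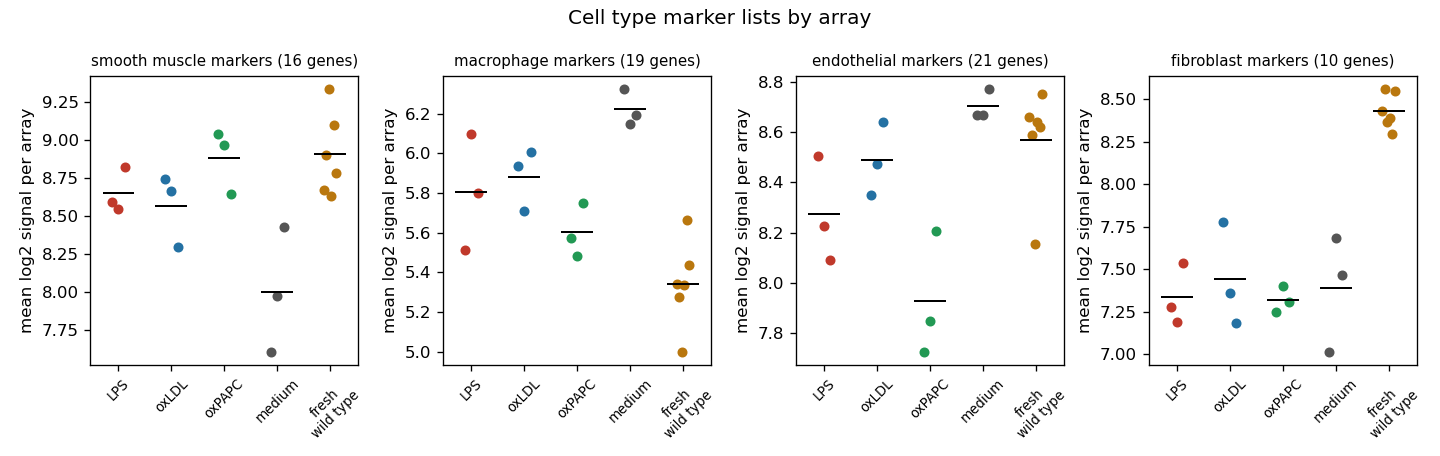
Mean log2 signal per array over 4 lists of cell type markers, with 1 point per array and a bar at the group mean, for LPS, oxLDL, oxPAPC, medium and fresh wild-type intima. The medium group has the lowest mean for smooth muscle markers (arrays at 7.61 to 8.43) and its arrays are the highest for macrophage markers (6.15 to 6.32), while fibroblast markers are lower in all incubated groups than in fresh intima.

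Endothelial markers were strong in every group, with mean log2 signals of 8.28 with LPS, 8.49 with oxLDL, 7.93 with oxPAPC and 8.70 in medium, so the labelled cell type's defining genes were present. Pecam1, an endothelial junction protein, averaged 11.24 in the stimulated arrays and 11.32 in medium. Of 20 tested endothelial markers, 6 fell with the same sign for each stimulus and none rose, against 6.79% lower and 4.74% higher over all genes. Only 1 of the 20 had a positive mean difference. The list median was -0.51, with -0.53 for LPS, -0.11 for oxLDL and -0.84 for oxPAPC. Egfl7, a secreted regulator of vessel formation, measured 7.73, 7.57 and 7.57 with LPS, 8.02, 8.23 and 8.05 with oxLDL and 6.88, 7.07 and 7.58 with oxPAPC, against 8.67, 8.45 and 8.92 in medium. It fell by 1.05 ± 0.15 (limma adjusted p = 0.0030), and the difference among stimuli was called (limma moderated F, adjusted p = 0.017). Emcn, the sialomucin endomucin, fell by 0.91 ± 0.13 with its smallest change under LPS, at -0.51, and Eng, the TGF-beta coreceptor endoglin, by 0.76 ± 0.14 with its smallest under oxLDL, at -0.39. Icam2, Plvap and Ptprb completed the 6 at -0.90, -0.78 and -0.71. The number was 3 without medium replicate 11, and the list median was -0.49.

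Of 18 tested macrophage markers, 6 fell and none rose, against 6.79% lower and 4.74% higher over all genes. The list median was -0.48, 11 members were lower with each stimulus and 3 had a positive mean difference. C1qc, a chain of the complement starter C1q made largely by macrophages, measured 5.03, 5.65 and 5.03 with LPS, 5.61, 5.16 and 6.26 with oxLDL and 5.18, 5.44 and 5.80 with oxPAPC, against 6.78, 6.17 and 7.02 in medium. Only oxLDL replicate 16 overlapped medium. The fall was 1.19 ± 0.25 (limma adjusted p = 0.014), with C1qa at -0.86 ± 0.16 and C1qb at -0.66 ± 0.14. Cd68, Csf1r and Tyrobp, a lysosomal glycoprotein, the receptor of macrophage colony-stimulating factor and a signalling adaptor, made up the 6 at -0.90, -0.54 and -0.87. The marker mean was 5.52 to 6.10 with LPS, 5.71 to 6.01 with oxLDL and 5.48 to 5.75 with oxPAPC, against 6.15 to 6.32 in medium and 5.00 to 5.66 in fresh wild-type intima. Adgre1, a macrophage surface receptor, lay below the 40th percentile with all 3 stimuli. The number of falls was 1 without medium replicate 9, and without medium replicate 10 it was 3, and without medium replicate 11 or without oxPAPC replicates 11 and 12 it was 4. With the macrophage markers as a covariate no gene was called in the pooled comparison (858 at an unadjusted p under 0.05), and with the endothelial markers 6 were called (1238 at an unadjusted p under 0.05). Median standard errors were 1.64 and 1.61 times larger in those fits.

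Complement genes overlapped with that list, since 3 of the 7 falls among 14 tested complement genes were the C1q chains. The others were C4b, C1ra, C5ar1 and Serping1. C1ra, a protease of the C1 complex, fell by 0.66 ± 0.17, C5ar1, the receptor of the C5a fragment, by 0.67 ± 0.19, and Serping1, the inhibitor of that protease, by 0.91 ± 0.26. None of the 14 rose, and the list median was -0.68, while 6.79% of all genes fell. The other 7 members gave -1.43 (C2) to 0.14 (Cr1l) and were not called. Leaving out medium replicate 9 gave 1 fall, and without medium replicate 10 or without oxPAPC replicates 11 and 12 it was 4.

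Matrix and adhesion genes moved in both directions. Over all genes 6.79% fell and 4.74% rose, while of 15 tested basement membrane genes 3 fell and 2 rose. Lamb1 and Hspg2 fell as described and Nid1, which links laminin to collagen networks, fell by 0.51 ± 0.11, while Lamc1, a laminin gamma chain, rose by 0.56 ± 0.15 and Col4a5, a basement membrane collagen chain, by 1.09 ± 0.32. Of 13 tested integrins 4 fell and 3 rose. Itga6, a laminin-binding subunit, measured 5.33, 4.99 and 5.10 with LPS, 5.10, 5.01 and 5.49 with oxLDL and 5.05, 5.23 and 5.51 with oxPAPC, against 6.49, 6.46 and 5.71 in medium. Its fall was 1.02 ± 0.18 (limma adjusted p = 0.0079), while its second probe set gave -0.43 ± 0.26 and was not called. Itga3, another laminin-binding subunit, fell by 0.84 ± 0.12, and the leukocyte subunits Itgax and Itgb2 by 0.85 ± 0.22 and 0.91 ± 0.16. Itgb1, the most widely shared beta subunit, rose by 0.48 ± 0.09 and Itgb5 by 0.82 ± 0.23, beside Itga2. Leaving out medium replicate 9 left 1 integrin that fell and 2 that rose. The 2 rises among basement membrane genes became 0 without medium replicate 9, LPS replicate 3, oxLDL replicate 15 or oxPAPC replicate 11, and 1 without any other single array except oxPAPC replicate 13, without which there were 3.

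Fibroblast markers also split. Lum and Dcn encode lumican and decorin, small proteoglycans that bind collagen. Lum measured 3.90 to 5.65 in the stimulated arrays, against 6.08, 6.19 and 6.06 in medium, and fell by 1.51 ± 0.24 (limma adjusted p = 0.0050). Dcn measured 9.20, 9.62 and 9.51 with LPS, 9.42, 9.19 and 9.45 with oxLDL and 9.18, 9.36 and 9.37 with oxPAPC, against 10.02, 10.46 and 9.85 in medium, and fell by 0.74 ± 0.14. Postn, a matricellular protein, and Col3a1, a fibrillar collagen, rose by 1.19 ± 0.29 and 1.07 ± 0.29. The remaining 6 of the 10 markers were not called. Neither Postn nor Col3a1 kept its call without medium replicate 9 or 10, and only 1 fibroblast marker rose without LPS replicate 4 or 10, oxLDL replicate 15, or oxPAPC replicate 11 or 12.

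Over all genes 11.5% were called with the same sign for each stimulus. Of 15 tested cytokines and chemokines 1 rose and 2 fell with the same sign for each stimulus, and the list medians were 1.13 for LPS, -0.18 for oxLDL and -0.42 for oxPAPC. Cxcl2, a neutrophil chemokine, measured 10.66, 10.72 and 10.95 with LPS, 9.64, 9.71 and 9.55 with oxLDL and 9.91, 9.89 and 10.03 with oxPAPC, against 9.41, 9.54 and 9.19 in medium. It rose by 0.74 ± 0.11 (limma adjusted p = 0.0037), chiefly through the LPS arrays, and differed among the stimuli (limma moderated F, adjusted p = 0.0012). Cxcl12, a homing chemokine, fell by 1.23 ± 0.18, with -2.55 under oxPAPC against -0.69 under LPS and -0.46 under oxLDL. Ccl2, the monocyte chemoattractant, fell by 1.00 ± 0.28, but its stimulated means lay below the 40th percentile with all 3 stimuli. None of 17 NF-kB subunits and feedback genes rose and 1, Bcl3, fell, while of 21 interferon response genes Stat2 and Irf8 fell and none rose. Of 12 leukocyte adhesion genes Icam2 and F11r fell and none rose. Icam1, Sele and Vcam1, the inducible adhesion molecules, gave pooled differences of 0.07, -0.05 and -0.20 and were not called. A pooled difference near 0 can hide opposite differences with single stimuli. With LPS, oxLDL and oxPAPC the list medians were 0.51, -0.11 and -0.32 for NF-kB genes. They were 0.91, 0.07 and -0.48 for interferon genes and 0.17, -0.23 and -0.78 for adhesion genes. The 2 chemokine falls became 1 without any single array other than medium replicate 9, oxLDL replicate 16 or oxPAPC replicate 13.

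Of 22 tested NRF2 targets 3 rose and none fell, against 4.74% higher and 6.79% lower over all genes. Gclm, which makes glutathione precursors, gave 2.39 with oxPAPC, 0.21 with LPS and 0.12 with oxLDL. Gsr, the glutathione reductase, gave 1.09, 0.35 and 0.71 in that order and rose by 0.72 ± 0.16, and Abcc1, an export pump for glutathione conjugates, gave 1.04, 0.87 and 0.22. None of the 22 rose with the same sign for each stimulus without medium replicate 9, 1 did without medium replicate 11 and 5 without oxPAPC replicates 11 and 12. Of 21 ATF4 targets 4 fell and 1 rose. Chac1, which degrades glutathione, measured 7.71, 8.05 and 8.22 with LPS, 7.98, 8.21 and 8.25 with oxLDL and 7.70, 8.10 and 7.99 with oxPAPC, against 8.80, 9.07 and 8.94 in medium, and fell by 0.91 ± 0.14 (limma adjusted p = 0.0036). Slc7a5 and Slc3a2, the 2 chains of an amino acid exchanger, fell by 0.59 ± 0.14 and 0.49 ± 0.11, and Ddit3 by 0.64 ± 0.19. Vldlr, a lipoprotein receptor, rose by 0.86 ± 0.26, a call that was lost without medium replicate 9, any 1 of the LPS arrays, oxLDL replicate 15, or oxPAPC replicate 11 or 12. Of 19 unfolded protein response genes Xbp1, Atf6 and Ddit3 fell and none rose. The 4 falls among ATF4 targets became 1 without any 1 of the medium arrays and 7 without oxPAPC replicate 13. The unfolded protein response list had 1 fall without medium replicate 10 and 0 without medium replicate 9 or 11.

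**Figure D4:**
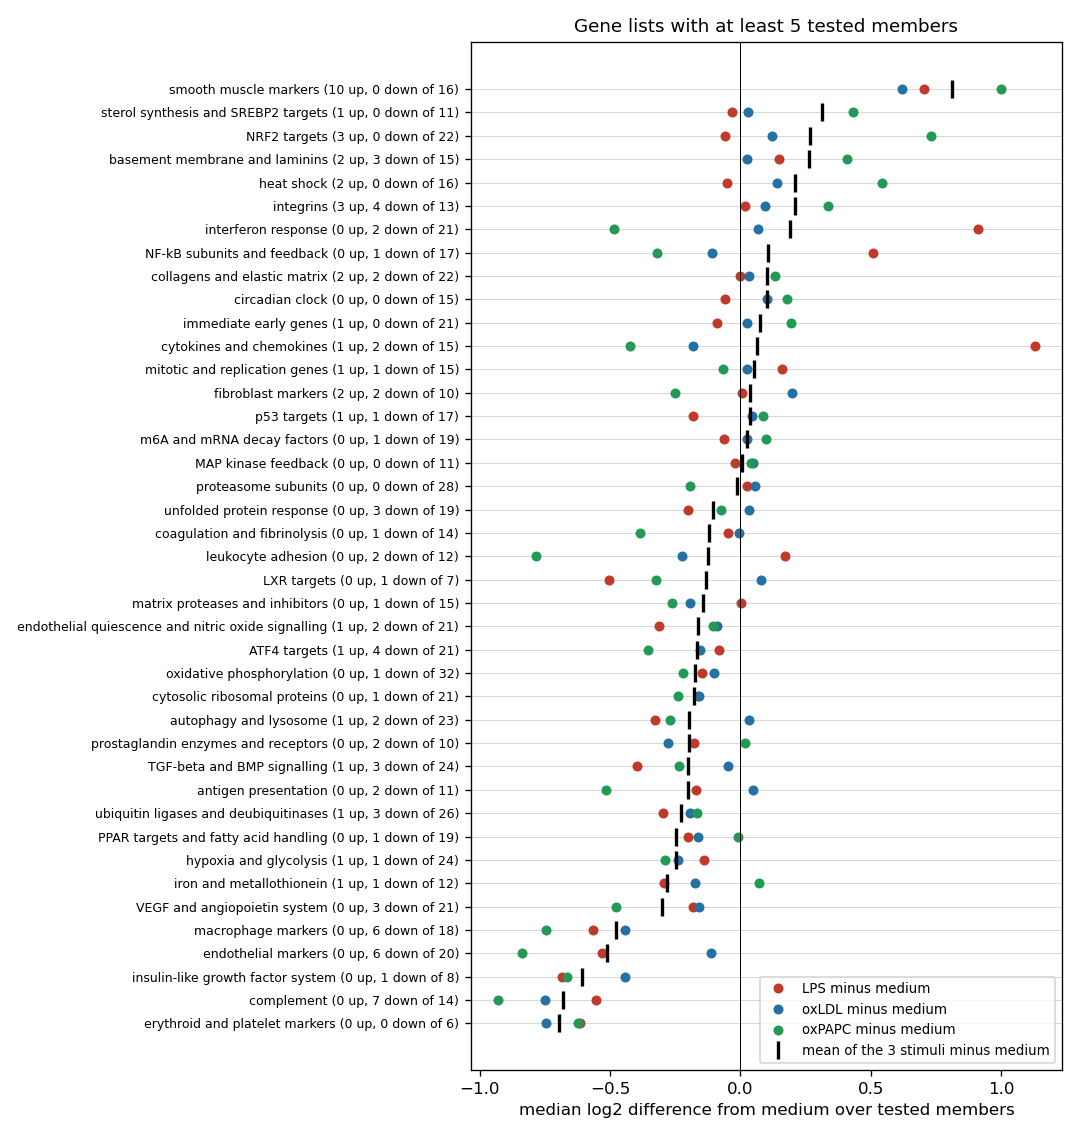
Median log2 difference from medium over the tested members of each gene list with at least 5 tested members, with points for LPS, oxLDL and oxPAPC and a tick for the mean of the 3 stimuli, and in brackets the members that rose or fell with the same sign for each stimulus. Smooth muscle markers lie highest at 0.81, complement (-0.68) and erythroid and platelet markers (-0.70) lie lowest, and the 3 points lie farthest apart for cytokines and interferon genes.

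Genes of further lists were also called with the same sign for each stimulus. Igfbp3, a carrier of insulin-like growth factors, measured 4.59, 6.22 and 5.78 with LPS, 5.97, 5.03 and 5.47 with oxLDL and 3.47, 3.55 and 3.97 with oxPAPC, against 7.44, 8.74 and 6.48 in medium. It fell by 2.66 ± 0.42 (limma adjusted p = 0.0047), with the oxPAPC arrays lowest. Hpgds, a prostaglandin D synthase, fell by 1.35 ± 0.26, and Pgf, the placental growth factor, by 1.27 ± 0.21. Pfkfb3, an activator of glycolysis in endothelial cells, fell by 0.92 ± 0.12, with -0.97 for LPS, -0.37 for oxLDL and -1.41 for oxPAPC. Gucy1b1, a subunit of the nitric oxide receptor, rose by 1.28 ± 0.25, and Nr4a2, an immediate early nuclear receptor, by 0.97 ± 0.14. Their lists held 1 fall and no rise among 8 insulin-like growth factor genes, 2 falls among 10 prostaglandin genes, 3 falls among 21 VEGF and angiopoietin genes, and 1 fall and 1 rise among 24 hypoxia and glycolysis genes. There were 2 falls and 1 rise among 21 endothelial quiescence and nitric oxide genes and 1 rise among 21 immediate early genes. Over all genes 6.79% fell and 4.74% rose by this rule. F2r, the thrombin receptor, measured 9.99 to 10.36 in the stimulated arrays, against 10.68, 10.61 and 10.82 in medium, and fell by 0.55 ± 0.10. In the lists of 28 proteasome subunits, 15 circadian clock genes and 11 MAP kinase feedback genes limma called no member with the same sign for each stimulus, and in each list the member with the smallest p, Psme2 (-0.58), Tef (-0.31) and Dusp14 (0.39), had an adjusted p of 0.054, 0.10 and 0.051.

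Fresh wild-type intima placed the medium and stimulated levels beside an unincubated tissue. This comparison uses the same medium arrays, so the values are given side by side and no agreement between them was tested. The 17 rises had a median difference of -0.64 for medium minus fresh and 0.16 for stimulated minus fresh, and the 53 falls had 0.51 and -0.65. For Csrp1 the difference was -1.19 ± 0.19 for medium minus fresh and -0.0021 ± 0.14 for stimulated minus fresh, so the stimulated arrays stood at the fresh level. Dmd was alike in this, at -0.95 ± 0.17 and 0.09 ± 0.13. C4b was 2.13 ± 0.31 above fresh in medium and 0.12 ± 0.23 above it in the stimulated arrays. Lamb1 showed the other form, with 0.27 ± 0.34 for medium minus fresh and -1.92 ± 0.26 for stimulated minus fresh. Eps8, with 0.30 ± 0.32 and -1.52 ± 0.24, Fabp5, with 0.32 ± 0.25 and -1.51 ± 0.19, and Cp, with -0.01 ± 0.15 and -1.40 ± 0.11, had the same form. Itga2 averaged 3.41 and Chac1 3.13 in fresh intima, below the 40th percentile of every fresh array, so their differences from fresh have no exact size. For Chac1 the stimulated arrays, at 7.70 to 8.25, and the medium arrays, at 8.80 to 9.07, all lay above the highest fresh array at 3.37.

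The number of shared genes depended on single arrays. With 1 array left out, the 70 genes became 45, 41 and 49 without LPS replicates 3, 4 and 10, 66, 13 and 24 without oxLDL replicates 14, 15 and 16, 54, 48 and 111 without oxPAPC replicates 11, 12 and 13, and 7, 36 and 33 without medium replicates 9, 10 and 11. Of the original 70, 7 were among the 7 without medium replicate 9, and 12 among the 13 without oxLDL replicate 15. Without medium replicate 9 the median standard error was 1.2 times larger. The medians of the rises and falls tested were then 0.84 and -1.07, and 62 of the 70 had a pooled call. In that fit 68 of the 70 had the same sign with each stimulus. Genes that failed the filter there, such as Prom1, were not tested and had no call. Without oxPAPC replicates 11 and 12 together, 14 genes were called with each stimulus, with the spread of the lone oxPAPC array taken from the other groups. Capns1, Dapk1 and Mdfic, singled out after these values were seen, were the only 3 genes of the 70 called with each stimulus in all 12 of these fits. Capns1, the small calpain subunit, measured 8.96, 8.57 and 8.55 with LPS, 8.88, 8.82 and 8.93 with oxLDL and 9.02, 9.12 and 9.10 with oxPAPC, against 9.84, 10.17 and 10.19 in medium. Dapk1, a kinase of cell death and autophagy, measured 6.09 to 6.53 in the stimulated arrays, against 7.03, 7.18 and 7.45 in medium, while Mdfic, which binds and restrains transcription factors, fell by 1.31 ± 0.17. Of the 33 named genes among the 70, 29 lost their pooled call in none of the 12 fits that tested them. Prom1 is counted among these, although it failed the filter and was not tested without any 1 of the medium arrays. Apobec1 and Itga6 lost the pooled call without medium replicate 9, at limma adjusted p of 0.053 and 0.052. Bpifb1 and Kctd1 lost it without medium replicate 11, at 0.056 and 0.055.

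**Figure D5:**
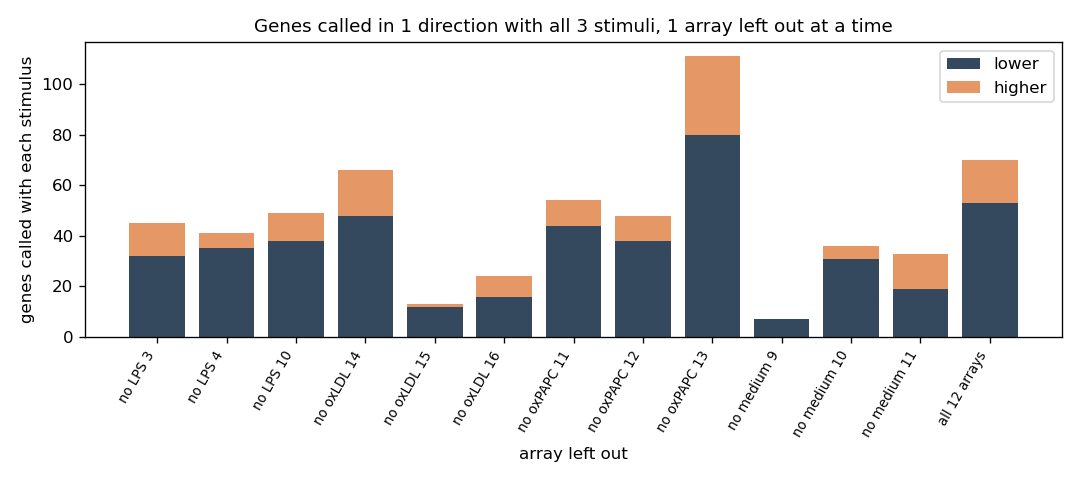
Number of genes called in 1 direction with each of the 3 stimuli (vertical axis) when 1 array is left out (horizontal axis) and with all 12 arrays, split into higher and lower genes. The count of 70 with all arrays falls to 7 without medium replicate 9 and rises to 111 without oxPAPC replicate 13.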

How the data were processed

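The deposited values were log2 signals of Affymetrix probe sets. RMA and affy are the tools listed in the submitters' processing notes. RMA corrects background, quantile normalizes arrays and summarises probes, so a change common to most transcripts cannot be seen. Versions and the genome build are not given in the sources used here, and joint normalization of all arrays is not stated. Probe sets were named through the platform annotation, updated with RefSeq. Of 22626 probe sets, 18003 carried 1 symbol and named 11807 genes, taking the probe set with the highest mean signal over all 22 arrays for each. Genes above their array's 40th percentile in at least 3 of the 12 incubated arrays were tested (7550). The 4 incubated groups were fitted together with limma 3.58.1 in R 4.3.3, and two-sided p-values were adjusted by Benjamini-Hochberg over the tested genes. The pooled comparison was the mean of the 3 stimulus means minus medium. Every ± is a standard error from limma. The fits were tested on simulated data. Of 922 entries in 43 gene lists, 797 were on the array.

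The comparison, its members and the lists were chosen with earlier results of these data known. Named genes were the 12 largest rises and 12 largest falls called with each stimulus, ranked by the weakest stimulus, the 4 most and 4 least even, up to 3 called members of each list, and, for lists without a call, the gene of lowest p. Further members of a list, the genes with CArG boxes, and Slc5a2, Kdm5d, Tnk1, Arhgef1, Capns1, Dapk1, Mdfic and the genes beside the threshold were named after their values were seen. Groups followed the labels. Alternatives were other scalings, filters, probe set rules and priors, marker covariates, a replicate block and leaving out each array.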

Additional observations from a re-analysis of the deposited data

Results flagged for a closer look

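Among 100 named genes, 3 had 1 of the 9 stimulated arrays that stood apart from the rest by Dixon's criterion (gap over range above 0.493), a criterion that chance meets in about 1 in 20 groups. B3galnt2 had its lowest stimulated value in LPS replicate 3, at 6.8979 against 7.4063 for the next array. Hba-a1, a hemoglobin alpha chain, had its lowest value in oxPAPC replicate 11, at 6.2233 against 8.1903 for the next. Dusp14, a dual-specificity phosphatase, had its highest value in oxPAPC replicate 11, at 5.4563 against 5.0977 for the next.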

How the results depend on the processing

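Median centring, cyclic loess, other filters, the mean of a gene's probe sets and an intensity trend with a robust prior left the pooled count between 786 and 1116 (main value 900) and the count called with each stimulus between 56 and 100 (main value 70). The pooled split was 370 higher and 530 lower in the main setting, 445 and 445 with median centring, 383 and 439 with cyclic loess, and 544 and 572 without a filter, so the excess of falls was absent with median centring. Without a filter on low values, 1077 genes in place of 667 had all stimulated arrays on 1 side of medium. A fit of 2 groups, 9 stimulated against 3 medium, called 223 genes in the pooled comparison, all 223 with the same sign for each stimulus. With smooth muscle markers as a covariate the counts were 0 pooled, 0 with the same sign, 0 with each stimulus, 107 for LPS, 15 for oxLDL, 0 for oxPAPC and 757 among stimuli. With macrophage markers they were 0, 0, 0, 28, 5, 0 and 565. With endothelial markers, an alternative chosen after seeing the data, they were 6, 6, 1, 243, 189, 1 and 403. Without oxPAPC replicates 11 and 12, also chosen after seeing the data, they were 441, 431, 14, 694, 212, 85 and 321. The covariates vary between the groups, and the cause of the lost calls was not tested.

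With 1 array left out at a time the ranges were 192 to 1315 pooled, 191 to 1231 with the same sign, 7 to 111 with each stimulus, 234 to 906 for LPS, 22 to 377 for oxLDL, 731 to 1995 for oxPAPC, 593 to 1782 among stimuli and 704 to 1140 with arrays on 1 side. Fits with 1 array left out ended the pooled call of 45 named genes for medium replicate 9, 33 for medium replicate 11, 26 for medium replicate 10 and at most 11 for any stimulated array. Of 94 named genes called, 43 lost the call in none of these 12 fits, and 0 kept it under all alternatives. A gene that failed the filter in a fit, as Prom1 did without any 1 of the medium arrays, was not tested there. Such a gene was counted as not losing its call. Tef reversed to 0.0164 with the mean of its probe sets, and Postn to -0.018 with smooth muscle markers as a covariate.

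No paired analysis was possible because LPS and oxPAPC each share only 1 replicate number with medium, and oxLDL shares none. The labels do not tie numbers to animals or days. With the number as a random replicate block (correlation 0.24) the pooled count was 1315, and 100 genes were called with each stimulus. The correlations of the same-numbered arrays' deviations were 0.025 and 0.143. Signals near the 40th percentile limit the size of 13 of the 70 changes.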
